A study of Mus musculus with 25 samples.

Results

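Follicles at day 8 of culture, the last day sampled, were compared with isolated follicles that had not been cultured (day 0). The comparison takes in 8 of the 25 arrays of the series, namely the 3 arrays labelled day 8 and the 5 labelled day 0. Every follicle came from CD-1 mice, 16 days old, and was a multilayered secondary follicle, 150 to 180 µm in diameter, that had been freed from the ovary mechanically. Day 8 follicles had been enclosed singly in alginate, a seaweed gel that holds the follicle as a sphere, in 100 µl of medium with 10 mIU/ml recombinant FSH, 3 mg/ml bovine serum albumin, 1 mg/ml bovine fetuin, insulin and transferrin (each at 5 µg/ml) and selenium (5 ng/ml), and part of the medium was renewed every 2 days. No LH was named. Each sample pooled 20 to 40 follicles, the cultured ones released from the gel with alginate lyase, so 1 array averages the oocyte, its granulosa and theca cells and any cells that stayed attached. The protocol states 3 independent experiments, whereas day 0 has 5 repeats whose titles mark them as repeats of a reference. They may be repeat arrays of 1 pool, and then the spread at day 0 is technical.

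A secondary follicle is an oocyte inside several layers of granulosa cells, with a basement membrane and a theca layer around them. Under FSH the granulosa cells multiply, later take up cholesterol and make steroids, and a fluid-filled antrum can form. Oocyte and granulosa cells feed and restrain each other through gap junctions and secreted factors of the TGF beta family. In a pooled sample, fewer cells of a type, less RNA per cell and more RNA from other cells cannot be told apart.

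Levels below are log2 values of background-corrected, quantile-normalized bead signals, and a number in brackets after a gene is its log2 change, day 8 minus day 0. A gene was called when its adjusted p in limma, over all 10693 genes tested, was under 0.05. Between day 0 and day 8, 4639 genes (43.4%) were called, 2198 higher (20.6%) and 2441 lower (22.8%) at day 8. The 5 arrays of day 0 and the 3 of day 8 did not overlap for 4990 genes (46.7%), of which 4264 were called. For most called genes named below, this lack of overlap was a condition of being named. Most called changes were moderate: 2889 of them were under 2-fold, 1750 were at least 2-fold (763 higher, 987 lower) and 352 were at least 4-fold (147 higher, 205 lower). The median called rise was 0.80 and the median called fall −0.87, against a median standard error of 0.18. Over all genes tested the median change was −0.0027, largely set by quantile normalization, which gives every array the same distribution. Detected on every day 8 array and on no day 0 array were 122 genes, and 251 genes showed the reverse. Some named genes were detected on part of the arrays of their lower day, so that their change is set against a level partly below background. At day 8 these were Akr1b7, Casp4, Ccl7, Col12a1, Dusp4, Eln, Gdf15, H4c17, Il11, Krt18, Myh11, Tinagl1 and Upk3b (1 of 3 arrays) and Akr1c19, Cd14, Cldn4, Col9a2, Cryab, Eng, Gadd45b, Rdh12 and Spry4 (2 of 3). At day 0 they were Chrd and Ctss (1 of 5), Kcne2 and Rab5b (2 of 5), Elovl2 and Trf (3 of 5) and Mgst2 and Slc41a3 (4 of 5). With day 0 averaged and counted as 1 sample, 2114 genes were called, 928 higher and 1186 lower, and the counts of 75 of the 105 lists described below fell by more than 1.5 times. In the authors' normalized values changes were smaller. Over the 4234 called genes tested there, the median ratio to the change in the main fit was 0.495.

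**Figure D1:**
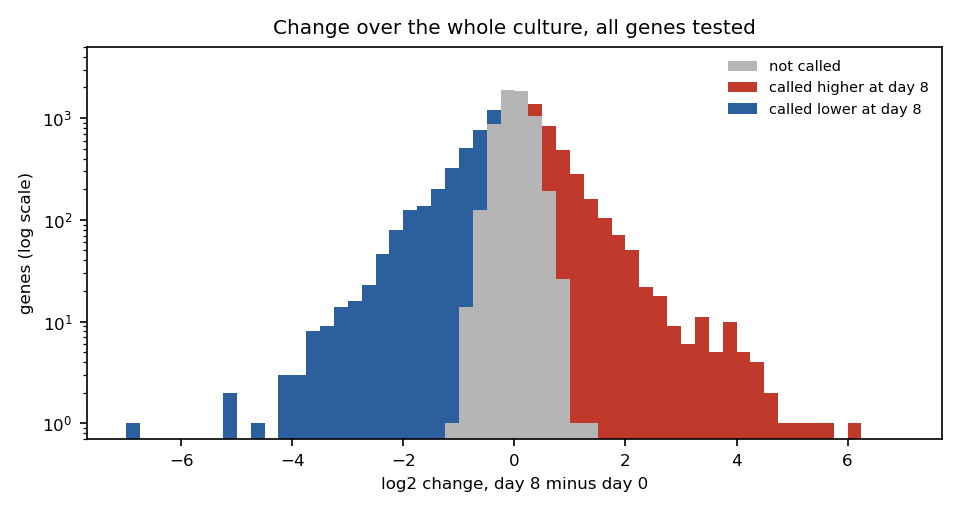
Number of genes (log scale) by log2 change, day 8 minus day 0, over the 10693 genes tested; red marks the 2198 genes called higher, blue the 2441 called lower and grey the genes not called, stacked in each bar. Both tails reach past 5 on the log2 scale, and the uncalled genes sit around 0.

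Arrays of a day resembled each other more than arrays of different days. Pearson correlations over the 10693 genes tested lay between 0.983 and 0.996 within day 0 and between 0.978 and 0.990 within day 8. Across the days they lay between 0.910 and 0.925. Day 0 replicate 4 correlated least with its day (0.983 to 0.989), and without it 4503 genes were called. Replicate 1 of day 6, which enters the shared estimate of spread, correlated with its day at 0.950 to 0.953, and with only the 8 arrays of day 0 and day 8 in the fit 5306 genes were called. The share of probes detected was alike, 48.3% to 50.2% at day 0 and 47.7% to 50.1% at day 8. Of 10 granulosa markers tested, 6 rose and 1 fell. Theca markers rose in 5 of 7 cases, and oocyte markers fell in 10 of 11. Both days carried the tissue their labels name: Fshr, Cyp17a1 and Zp3, defining markers of granulosa, theca and oocyte, were detected on all 8 arrays.

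The genes were sorted into 105 lists by process, family or cell type, of which the members that passed the detection filter were counted. Lists of sterol synthesis (95.7% of members higher), lysosomes (84.6%) and fatty acid synthesis (76.2%) stood far above the 20.6% of all genes. Lists of maternal-effect genes (85% lower), ribosome assembly in the nucleolus (72.7%), DNA replication (68.3%) and the amino acid response (68.4%) stood far above the 22.8% called lower. Subunits of complex I (6.06% called in either direction), ATP synthase (6.67%) and the proteasome (7.32%) lay far below the 43.4% of all genes.

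**Figure D2:**
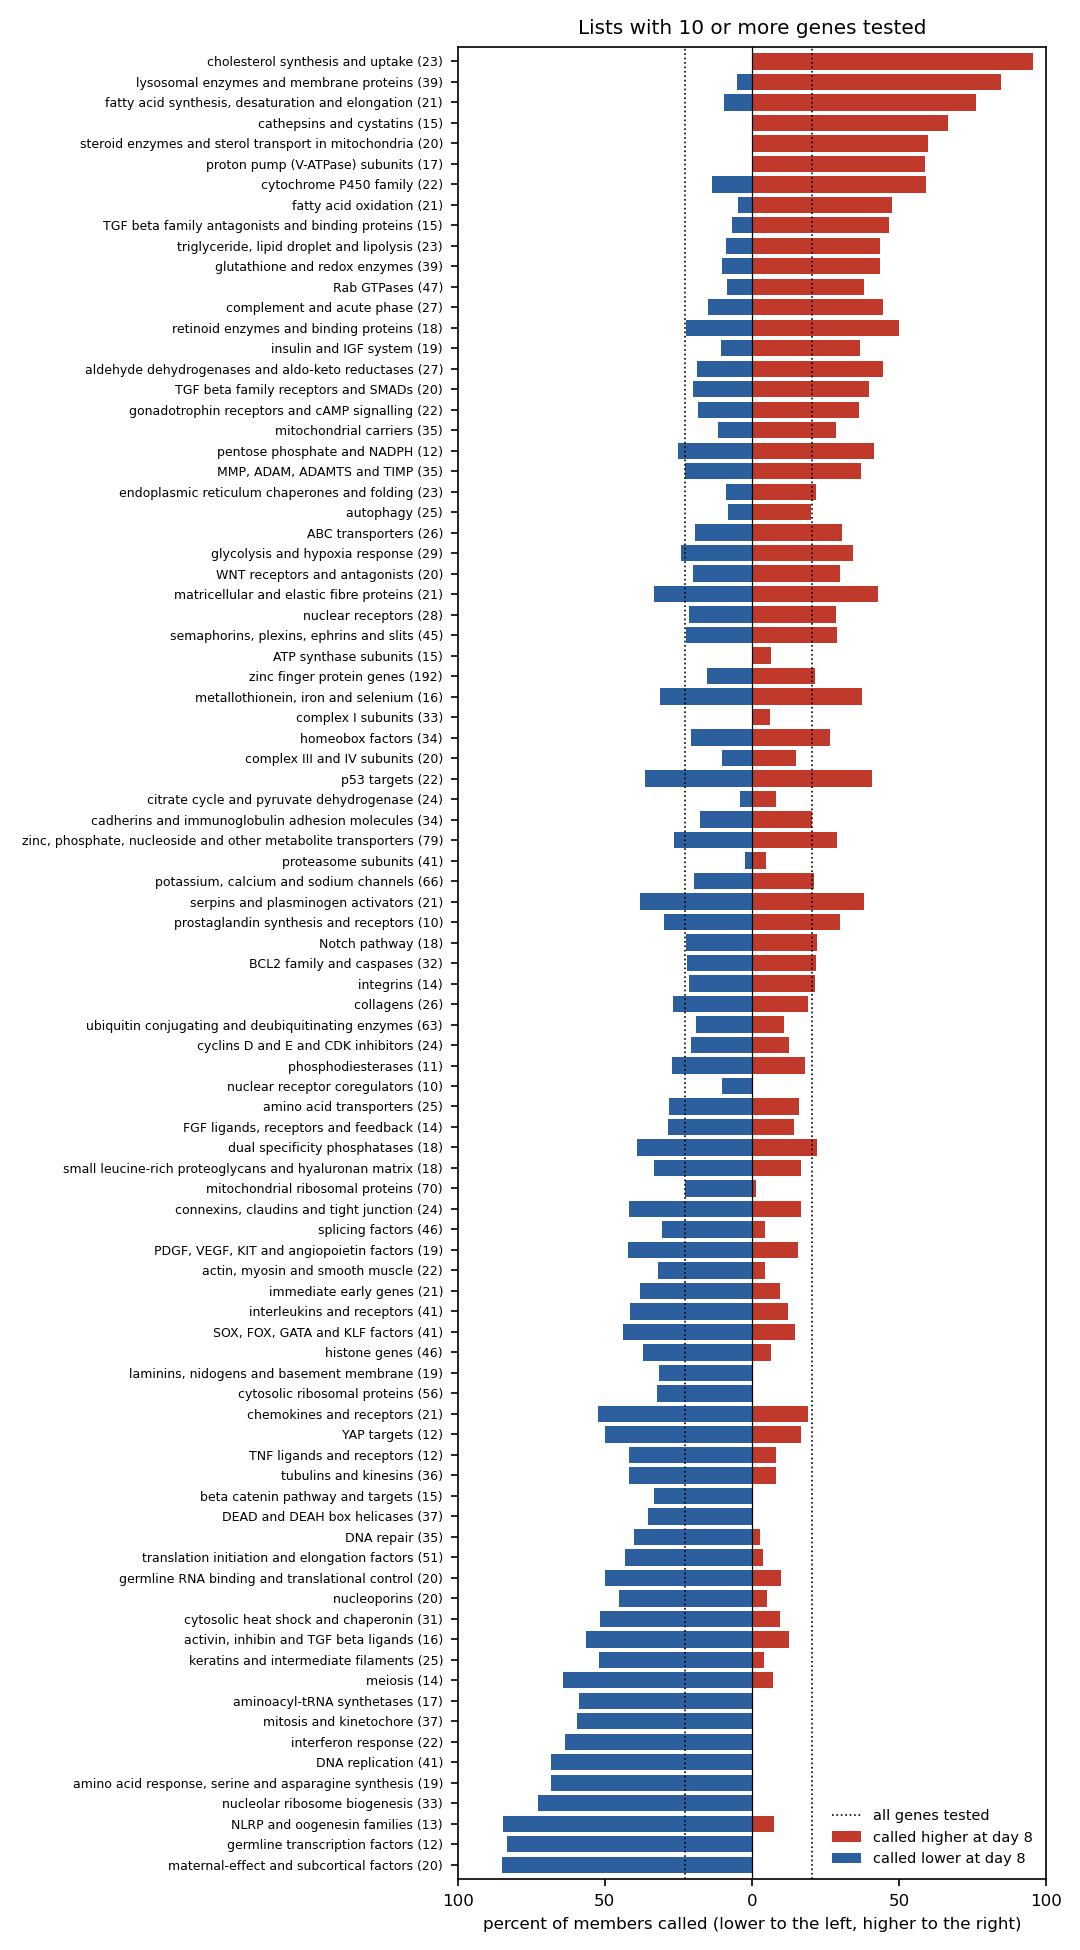
Percent of the members of the larger lists called higher (red, to the right) or lower (blue, to the left) at day 8. The number of genes tested is in brackets, and dotted lines mark 20.6% and 22.8%, the shares over all genes tested. Small lists, such as the zona pellucida, EGF and WNT ligand lists, and the cell type markers are not drawn. Cholesterol synthesis, lysosomal genes and fatty acid synthesis stand at the top, maternal-effect genes at the foot, and short bars mark families with few calls.

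Lysosomes are the acid compartments in which cells break down proteins, glycans and lipids. Of 39 lysosomal enzymes and membrane proteins, 33 rose and 2 fell (median 0.91), and 23 rose with day 0 counted as 1 sample. Naglu, which removes sugars from heparan sulfate, measured 8.44, 8.34, 8.34, 8.16 and 8.27 at day 0 and 11.05, 10.88 and 10.98 at day 8. All 3 day 8 arrays lay more than 2 log2 units above the highest day 0 array, and the change was 2.66 (SE 0.14, adjusted p = 2.24e-11). Neu1, a sialidase, measured 8.24, 8.30, 8.08, 8.08 and 8.28 at day 0 and 10.32, 10.62 and 10.62 at day 8, a change of 2.32 (SE 0.11, adjusted p = 6.74e-12). Grn, which encodes progranulin, rose as well (1.71), as did Gpnmb, a glycoprotein of lysosomal membranes; its probes differed in size, between 1.63 and 4.36. Arsb (0.10) and Cln3 (−0.24) did not pass.

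The proteases of the compartment and the pump that acidifies it moved the same way. Of 15 cathepsins and cystatins 10 rose and 0 fell (median 0.72, or 0.57 with the members below background set to their bound). Ctsl, a cysteine protease, measured 6.99, 6.79, 7.07, 7.33 and 6.77 at day 0 and 9.32, 9.32 and 9.47 at day 8, a 5.21-fold rise (adjusted p = 7.54e-09). Ctss (1.91), Ctsk (1.30) and Ctsh (1.20), 3 more proteases of this family, rose, and the cystatin Cstb (0.02) did not pass. Of 17 subunits of the vacuolar proton pump 10 rose and 0 fell (median 0.55), led by Atp6v0a1 (1.40, with its probes between 0.61 and 1.40 and not all called) and Atp6v0e2 (1.15); with day 0 counted as 1 sample, 3 rose. Among autophagy genes, which deliver cargo to lysosomes, 5 of 25 rose (20.0%, near the 20.6% of all genes) and 2 fell (8.0%). Ulk2 (1.04) and Wipi1 (0.98) were up, Atg5 (−0.82) was down and Sqstm1 (0.30) was not called. Rab GTPases, which route vesicles, rose in 18 of 47 cases and fell in 4. The endosomal Rab5b (1.33) and the secretory Rab3a (1.01) rose, and Rab27a (−1.57) and Rab7b (−2.24) fell.

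Macrophages are rich in lysosomes, and 2 of their markers rose steeply. Lyz2, a lysozyme, measured 5.64, 5.52, 5.63, 6.17 and 5.85 at day 0 and 8.68, 9.74 and 10.45 at day 8, and Lyz1 changed by 3.71; signals of this near-identical pair can come from either gene. The summed level of the 11 macrophage markers tested went from 981 to 1093 at day 0 to 4500 to 7962 at day 8, in units of normalized signal. Such a sum gives most weight to the brightest markers. Over the list, 4 markers rose and 4 fell, and 4 were not above background at day 8. The median change was −0.13, or 0.0 with the members below background set to their bound. The complement component C1qb was at least 1.26-fold lower and not above background on any day 8 array, Adgre1, the surface antigen that marks mature macrophages, was not above background there either, and Cd14 fell by 1.46. The part of macrophages in the lysosomal rise was not tested.

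**Figure D3:**
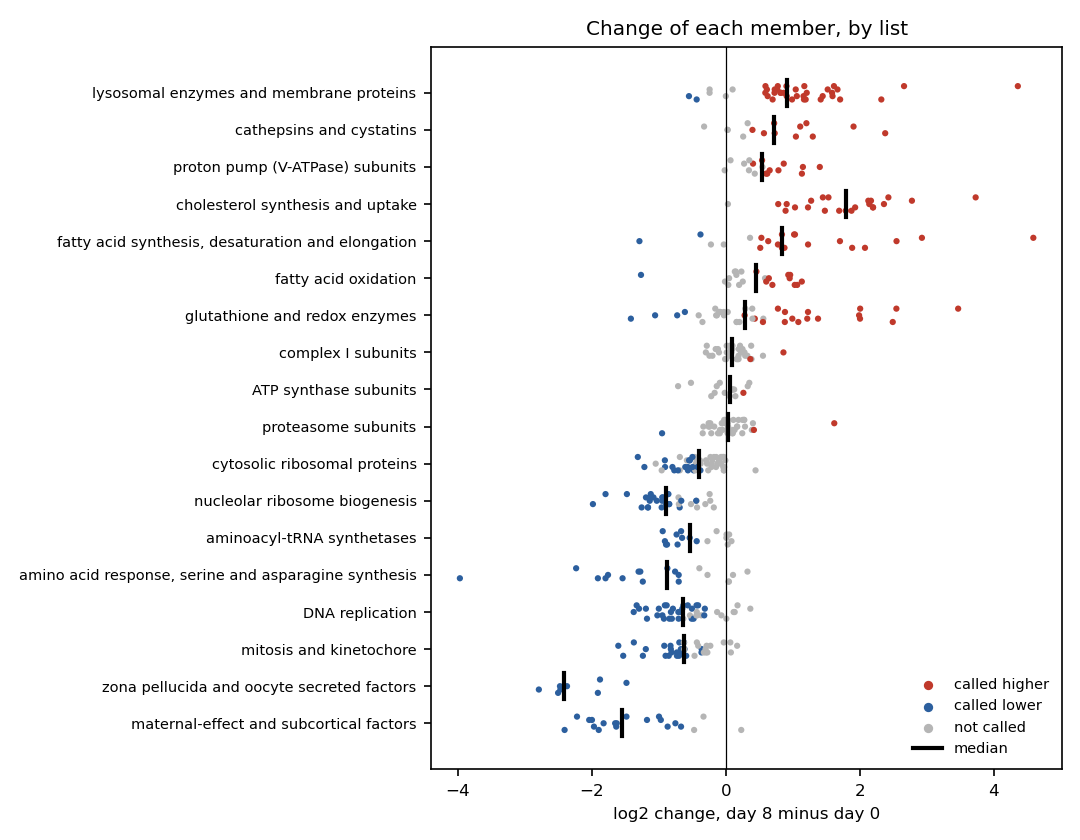
Log2 change of every tested member of 18 lists; a dot is a gene (red called higher, blue called lower, grey not called) and the black bar the median of the list. Lysosomal, sterol and fatty acid genes lie to the right of 0, complex I, ATP synthase and proteasome genes cluster at 0, and nucleolar, replication and oocyte genes lie to the left.

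Sterols and fatty acids are built from acetyl groups in the cytosol, and steroidogenic cells use the sterols as raw material for hormones. Cholesterol synthesis and uptake rose in 22 of 23 cases (median 1.79, or 1.71 with the members below background set to their bound), the exception being the sterol sensor Insig1 (0.03), whose probes lay between 0.03 and 0.79 and differed in their calls. Nsdhl, a sterol dehydrogenase, rose by 2.78 (SE 0.16, adjusted p = 6.93e-11). The promoter of Nsdhl is shown because it carries 2 copies of CCAAT, a short box bound by the factor NF-Y, which acts beside the sterol regulator SREBP at many promoters of this pathway. The 150 bases before its RefSeq start, 5′ to 3′ on the + strand of chrX:72918371-72918520 (GRCm38.p6), have the matches in capitals, both read on the opposite strand as ATTGG.

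Nsdhl: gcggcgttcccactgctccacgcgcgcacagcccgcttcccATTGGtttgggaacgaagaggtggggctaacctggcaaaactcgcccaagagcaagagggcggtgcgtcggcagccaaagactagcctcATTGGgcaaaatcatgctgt

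CCAAT was found on either strand in 14 of 20 promoter windows of this list (70%) and in 14 of 25 of fatty acid synthesis (56%). Each window ran from 250 bases before to 50 after a start, and 37.6% of 10572 windows of genes tested held the box. Similar shares were found in lists that fell, 26 of 36 windows of mitosis genes (72.2%) and 24 of 43 of DNA replication (55.8%), and 10 of 32 windows of complex I held it. TCACCCCA, a form of the sterol regulatory element, was in 1 of 20 windows of the cholesterol list, 1 of 25 of fatty acid synthesis and none of 42 of lysosomal genes, against 1.43% of all. TCACGTGA, the core of an element of lysosomal promoters, was in 2 of 42 windows of lysosomal genes and 3 of 13 of the proton pump, against 1.74% of all. The shorter CACGTG inside it was in 9 and 4 of these, 6 of 30 windows of nucleolar genes and 4 of 37 of the proteasome, against 9.59% of all. CAAGGTCA, a site of SF-1, was in none of 16 windows of steroid enzymes and none of 35 of gonadotrophin signalling, against 1.09% of all. A match describes the letters of a window and is not a bound site.

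Fatty acid synthesis, desaturation and elongation rose in 16 of 21 cases and fell in 2 (median 0.84), and in 11 with day 0 counted as 1 sample. Fads2, which makes polyunsaturated fatty acids by adding a double bond, measured 6.55, 6.54, 6.52, 6.99 and 6.73 at day 0 and 9.54, 9.54 and 9.70 at day 8, a 7.61-fold rise (SE 0.15 on the log2 scale, adjusted p = 2.42e-11). Elovl2, which lengthens the same fatty acids, measured 5.64, 5.92, 5.45, 5.32 and 5.32 at day 0 and 8.65, 7.51 and 8.07 at day 8. Its change was 2.55 (adjusted p = 9.00e-08), and its 3 day 8 arrays spread over more than 1 log2 unit. Acss2, which makes acetyl-CoA from acetate, rose by 2.08, and Mlxipl, a glucose-responsive transcription factor, fell by 1.29. In the triglyceride and lipid droplet list 10 of 23 rose and 2 fell, with the fatty acid carrier Fabp3 (1.85) and the lipase Lpl (1.45) up and the droplet protein Plin2 (−0.49) not called; with day 0 counted as 1 sample, 3 rose.

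Fatty acid oxidation, the route that breaks fatty acids down in mitochondria and peroxisomes, rose in 10 of 21 cases and fell in 1 (median 0.46, or 0.32 with the members below background set to their bound). Acaa2 (1.14), Echs1 (1.07) and Cpt2 (0.96), enzymes of import and cleavage, rose. Pdk4, a kinase that holds back pyruvate use, was the member that fell (−1.27). Of 8 sterol efflux and lipoprotein genes tested 2 rose (25.0%) and 1 fell (12.5%), against 20.6% and 22.8% of all genes. Apoa1, an apolipoprotein of HDL, fell by 1.95, and Vldlr (0.32) and Pltp (0.50) did not pass.

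Steroid enzymes and the proteins that carry sterol into mitochondria rose in 12 of 20 cases, and none was called lower (median 0.74). Hsd11b1, which regenerates active glucocorticoid, was not above background at day 0 and was at least 5.09-fold higher at day 8. Hsd17b1, which converts oestrone to oestradiol, rose by 1.35, while its relatives Hsd17b12 (0.15) and Hsd17b4 (−0.19) did not pass. In the wider cytochrome P450 family 13 of 22 rose and 3 fell (median 0.73, or 0.60 with the members below background set to their bound). Cyp4f15 was at least 3.19-fold higher, Cyp4f39 at least 4.39-fold lower, and Cyp2s1 fell by 3.04. Prkar2b, a regulatory subunit of the cAMP-dependent kinase that transmits FSH and LH signals, rose by 2.26 (adjusted p = 1.35e-05), whereas Prkar1a (0.12) and the catalytic Prkacb (0.44) did not pass. Over the whole list of gonadotrophin receptors and cAMP signalling 8 of 22 rose and 4 fell, and 3 rose with day 0 counted as 1 sample.

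Retinoid genes, which include enzymes that turn retinol into retinoic acid, a lipid hormone with many roles in the ovary, shifted in both directions. Of 18 retinoid enzymes and binding proteins 9 rose and 4 fell. Crabp2, which carries retinoic acid to the nucleus, rose by 1.88, while Stra6, a membrane receptor for retinol uptake, was at least 2.97-fold lower, and Rdh12, a retinal reductase, fell by 1.26. Aldehyde dehydrogenases and aldo-keto reductases, which include part of this list, rose in 12 of 27 cases and fell in 5. Aldh3b1 (2.1) rose, and Akr1c19 (−1.83) and Akr1b7 (−1.73) fell.

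Redox enzymes rose more often than they fell. Of 39 tested, 17 rose and 4 fell (median 0.29). Mgst2, a membrane-bound glutathione transferase, measured 5.98, 5.49, 5.55, 4.84 and 5.94 at day 0 and 9.92, 8.49 and 8.68 at day 8. The groups lay more than 2 log2 units apart, although replicate 1 stood above the other day 8 arrays (change 3.47, SE 0.44, adjusted p = 2.37e-06). Gpx3, the secreted glutathione peroxidase, measured 8.08, 8.22, 7.86, 8.04 and 8.12 at day 0 and 9.83, 10.29 and 10.10 at day 8, a change of 2.01 (adjusted p = 6.17e-07). Srxn1, which repairs peroxiredoxins, fell by 1.42, Gsto1 fell by 1.06, and the abundant Sod1 (−0.10) and Prdx2 (−0.09) did not pass. Of 16 genes of metal and selenium handling 6 rose and 5 fell. Trf, the iron carrier transferrin, rose by 1.45 and Selenop, which carries selenium, by 1.34, whereas the iron exporter Slc40a1 (−1.69) and the zinc exporter Slc30a1 (−1.39) fell. The medium of day 8 follicles held transferrin and selenium.

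Ribosomes are assembled in the nucleolus, and the genes for this assembly were lower at day 8. Of 33 nucleolar genes 24 fell and none was called higher (median −0.89), and all 33 had a change below 0. With day 0 counted as 1 sample 15 fell. Rrp12, an assembly and export factor of ribosomal subunits, measured 10.01, 10.07, 9.92, 9.85 and 10.11 at day 0 and 8.01, 7.76 and 8.26 at day 8, and every day 8 array was at least 1.5 log2 units below every day 0 array (change −1.98, SE 0.16, adjusted p = 8.77e-09). Rcl1, an enzyme of ribosomal RNA processing, measured 10.74, 10.87, 10.67, 10.91 and 11.08 at day 0 and 8.79, 9.32 and 9.06 at day 8, a change of −1.80 (adjusted p = 5.28e-09). Its 3 probes ranged from −1.80 to −0.98. Nop2 (−1.48), a ribosomal RNA methyltransferase, and Tsr1 (−1.26) fell as well.

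Other parts of the protein-making apparatus also had more falls than rises. Cytosolic ribosomal proteins fell in 18 of 56 cases with none called higher (median −0.40), among them Rps15a (−1.22) and Rpl4 (−0.91), while the abundant Rpl41 (−0.03) and Rplp1 (−0.04) did not pass. Only 3 of the list fell once day 0 was taken as 1 sample. Translation initiation and elongation factors fell in 22 of 51 cases and rose in 2. Eif5a (−1.18) and Eif1a (−1.12) fell, and Eef2k, a kinase that slows elongation, rose (0.94). Aminoacyl-tRNA synthetases, which load amino acids onto tRNA, fell in 10 of 17 cases with none called higher (median −0.54), with Farsb (−0.94) and Nars (−0.88) down and Aars (0.03) not called. Mitochondrial ribosomal proteins fell in 16 of 70 cases (22.9%), a share close to the 22.8% of all genes. DEAD and DEAH box helicases, which remodel RNA, fell in 13 of 37 cases, nucleoporins in 9 of 20 and splicing factors in 14 of 46. Nup98 (−1.18), U2af2 (−1.22) and Ddx28 (−0.86) were among those that fell.

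Genes of the amino acid response, which cells switch on through the factor ATF4 when amino acids run short or the endoplasmic reticulum is stressed, were lower at day 8. Of 19 tested 13 fell and none was called higher (median −0.87). Nupr1, a small stress-induced nuclear protein, measured 12.24, 12.29, 12.13, 12.02 and 12.18 at day 0 and 10.20, 9.84 and 9.77 at day 8, a 4.71-fold fall (SE 0.37 on the log2 scale, adjusted p = 6.06e-05). Slc7a11, the cystine transporter, fell by 1.80, while Cebpb (−0.39) did not pass. Promoter stretches of Nupr1 (chr7:126625471-126625620) and Slc7a11 (chr3:50443614-50443763) are shown because both hold the composite element TGATGNAA to which ATF4 binds with a C/EBP partner. Both lie on the − strand of GRCm38.p6, end 1 base before the RefSeq start and run 5′ to 3′, with matches on either strand in capitals.

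Nupr1: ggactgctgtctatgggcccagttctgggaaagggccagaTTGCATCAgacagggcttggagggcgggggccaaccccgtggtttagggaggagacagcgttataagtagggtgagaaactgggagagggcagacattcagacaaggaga

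Slc7a11: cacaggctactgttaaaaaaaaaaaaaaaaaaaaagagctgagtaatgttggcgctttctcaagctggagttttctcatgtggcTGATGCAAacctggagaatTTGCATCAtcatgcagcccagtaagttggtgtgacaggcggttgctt

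Slc7a11 holds 2 matches, one on each strand, and Nupr1 holds 1. The element was found in 6 of 22 windows of the amino acid response list and in 4 of 12 windows of aminoacyl-tRNA synthetases, against 2.37% of all 10572 windows. Of 23 genes of folding in the endoplasmic reticulum 5 rose (21.7%, near the 20.6% of all genes) and 2 fell (8.7%). Sel1l (1.49), part of the machinery that removes misfolded proteins, was up and Creld2 (−0.74) down. Of 31 cytosolic heat shock and chaperonin genes 16 fell and 3 rose. The small heat shock protein Cryab fell by 2.35, and the constitutive Hspa8 (−0.12) did not pass. Amino acid transporters were split, 4 of 25 higher and 7 lower, with the glutamine carrier Slc38a5 (1.56) up and the neutral amino acid carrier Slc1a4 (−1.71) down.

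The machinery of respiration and of protein disposal was rarely called. Complex I, the entry point of the respiratory chain, had 2 of 33 subunits higher and none lower (median 0.10, range −0.30 to 0.86), and Ndufa13 (0.07) and Ndufb8 (−0.01) are typical members. ATP synthase had 1 of 15 called, complexes III and IV 5 of 20, and the proteasome 3 of 41. The median change was 0.06 for ATP synthase and 0.03 for the proteasome. With day 0 counted as 1 sample no member of these 4 lists was called. Citrate cycle genes were called in 3 of 24 cases, among them Idh1 (1.81), whose product works in the cytosol and peroxisomes and makes NADPH. Cox7a1, a tissue-restricted subunit of complex IV, was an exception in size (2.76, adjusted p = 9.42e-04) and lost its call with day 0 counted as 1 sample. Nuclear receptor coregulators were also called rarely, 1 of 10.

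Of 35 carriers of the inner mitochondrial membrane 10 rose (28.6%) and 4 fell (11.4%), against 20.6% and 22.8% of all genes. Slc25a30, a carrier of this family, measured 5.54, 6.08, 5.96, 6.91 and 6.42 at day 0 and 9.24, 9.65 and 9.98 at day 8. Its change was 3.44 (SE 0.44, adjusted p = 2.50e-06), and day 0 was spread over more than 1 log2 unit. Slc25a35 (2.47) and Slc25a45 (2.36) rose, and Slc25a15, the ornithine carrier, fell (−1.5). In glycolysis and the hypoxia response 10 of 29 rose and 7 fell. The glycolytic enzymes Aldoc (3.31), Pfkfb4 (2.09) and Tpi1 (0.64, with its probes between 0.28 and 0.64 and not all called) rose, Ldha (0.10) did not pass, and the hypoxia-induced Car9 (−1.72) and Ndrg1 (−1.07) fell.

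Genes of DNA replication and mitosis were lower at day 8. DNA replication genes fell in 28 of 41 cases with none called higher (median −0.63), and in 12 with day 0 counted as 1 sample. Cdt1, which licenses origins for replication, measured 10.81, 10.74, 10.85, 10.97 and 10.65 at day 0 and 9.38, 9.34 and 9.57 at day 8, a change of −1.38 (SE 0.20, adjusted p = 1.63e-05). Mcm10 (−1.33), needed to start replication, and Dut (−1.30), which keeps uracil out of DNA, fell too. Mitosis and kinetochore genes fell in 22 of 37 cases with none called higher (median −0.62), and in 10 with day 0 counted as 1 sample. Espl1, the protease separase that releases sister chromatids, fell by 1.53 (adjusted p = 1.02e-07), and Kif23, a motor of the dividing cell's midzone, by 1.24, while the kinases Cdk1 (−0.30) and Plk1 (−0.30) did not pass. The stretch before the start of Espl1 (chr15:102296143-102296292, + strand, GRCm38.p6, 150 bases) is shown because it holds TTTGAA, the cell cycle homology region through which many genes of late division are held back outside it, in capitals.

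Espl1: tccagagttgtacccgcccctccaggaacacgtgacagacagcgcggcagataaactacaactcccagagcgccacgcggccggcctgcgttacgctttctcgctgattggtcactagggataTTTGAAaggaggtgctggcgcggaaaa

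TTTGAA was found on either strand in 22 of 36 windows of mitosis genes (61.1%), in 11.6% of those of replication genes and in 11.8% of all windows. TTTCCCGC, a form of the E2F site, was found in 7 of 43 windows of replication genes, in none of 36 of mitosis genes and in 1.79% of all. Of 35 DNA repair genes 14 fell and 1 rose, with the checkpoint kinase Chek1 (−1.58) down and the excision repair protein Xpa (0.80) up. Histone genes, of near-identical sequence and so open to shared signal, fell in 17 of 46 cases and rose in 3. H3c1 (−1.35) and H4c17 (−1.34) fell, whereas H2bc21 (1.44) and H1f2 (1.20) rose. Of 24 cyclins, CDK inhibitors and their E2F partners 3 rose (12.5%) and 5 fell (20.8%), against 20.6% and 22.8% of all genes. Their median change was 0.04. The E2F factors E2f1 (−0.92), E2f3 (−1.04) and E2f5 (−1.16) fell and Cdk2 (−0.22) did not pass.

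Oocyte genes fell together. All 8 tested genes of the zona pellucida, the coat of the oocyte, and of factors it secretes were lower (median −2.42). Maternal-effect and subcortical genes, whose products the oocyte stores for the embryo, fell in 17 of 20 cases with none called higher (median −1.56). Npm2, a histone chaperone of the oocyte nucleus, measured 10.88, 10.86, 10.79, 10.60 and 10.72 at day 0 and 8.61, 8.27 and 8.20 at day 8, a 5.31-fold fall (SE 0.35 on the log2 scale, adjusted p = 1.36e-05). Khdc3 (−2.04) and Padi6 (−2.0), components of the complex under the oocyte membrane, fell alike. Germline transcription factors and related nuclear genes fell in 10 of 12 cases. Dppa5a, an RNA-binding protein of germ cells, measured 12.32, 12.41, 12.58, 12.42 and 12.41 at day 0 and 9.45, 9.37 and 9.37 at day 8, a change of −3.03 (adjusted p = 2.04e-05). Zfp57, which keeps genomic imprints, fell by 2.15. In this list Gata4 (0.33), a factor present in granulosa cells, and Sohlh1 (0.04) did not pass.

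Germ-cell genes outside these lists went the same way where they were called, with a few exceptions. In the NLRP and oogenesin families 11 of 13 fell, led by Nlrp9c (−2.86) and Oog4 (−2.83), and Nlrp6 (0.36) did not pass; Nlrp9 genes are near-identical and can share signal. Of 20 genes of germline RNA binding and translational control 10 fell and 2 rose. Dazl (−2.18), Btg4 (−1.64) and Elavl2 (−1.54), regulators of stored mRNA in the oocyte, fell, and Msi2, which is expressed in many cell types, rose (0.68). Of 14 meiosis genes 9 fell and 1 rose. Mos, the kinase that holds the mature egg in arrest, fell by 2.3, and the recombination gene Msh4 was at least 1.31-fold lower. H1f8, the linker histone of the oocyte, fell by 2.2, and Eif4e1b, an oocyte form of a cap-binding factor, by 2.34.

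**Figure D4:**
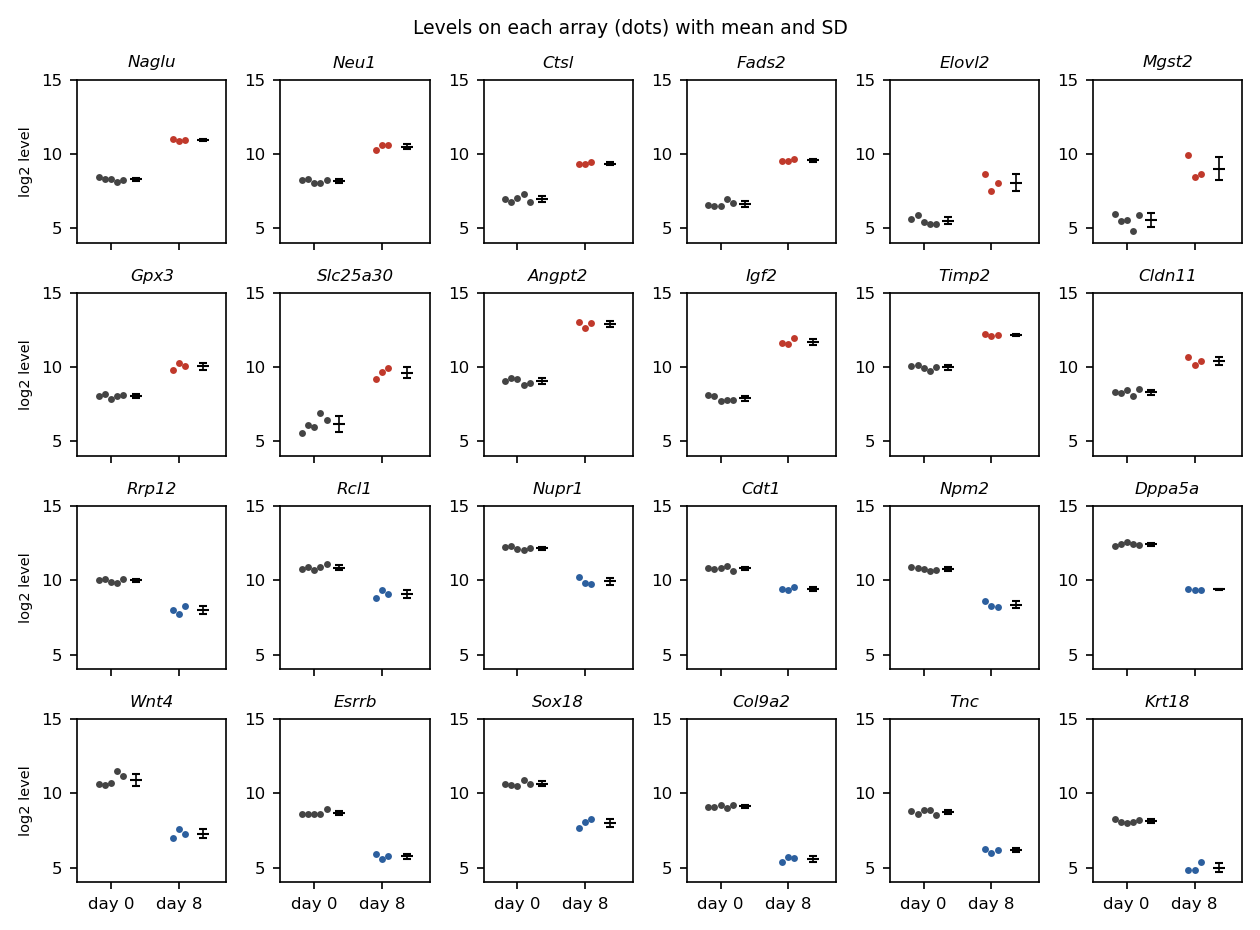
Log2 level of 24 genes on each of the 5 day 0 arrays (grey) and 3 day 8 arrays (red for genes called higher, blue for genes called lower), with the mean and standard deviation of each day beside the dots. The 2 days do not overlap for any gene shown, as the rule for naming most called genes required. This was so for 46.7% of all genes tested.

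TGF beta family ligands, receptors and inhibitors moved differently from each other. Of 16 ligands and subunits 2 rose and 9 fell. Gdf15, a stress-induced member, fell by 1.79, and Tgfb3 (−0.28) did not pass. Of 20 receptors, SMADs and their targets 8 rose and 4 fell. Tgfbr3, the coreceptor betaglycan that binds inhibin, rose by 1.86 (adjusted p = 1.91e-06), and Bmpr1b, a BMP receptor, by 1.28. The targets Id2 (1.38) and Id3 (1.40) rose, while Smad2 (−1.11) and Smad3 (−1.24), which transmit activin and TGF beta signals, fell. Of 15 antagonists and binding proteins 7 rose and 1 fell. The BMP inhibitor Chrd (1.18) and the protease Htra3 (1.58) rose, and Bmper fell (−1.78).

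WNT ligands and EGF genes were mostly lower where they were called. Of 6 WNT ligands and R-spondins tested 4 fell and 1 rose. Wnt4, a granulosa ligand needed for ovary formation in mice, measured 10.62, 10.59, 10.69, 11.52 and 11.15 at day 0 and 7.01, 7.60 and 7.25 at day 8, a 12.4-fold fall (SE 0.20 on the log2 scale, adjusted p = 4.47e-11). Rspo2 (−2.17), which amplifies WNT signals, and Wnt6 (−1.48) fell, Rspo1 (−0.21) did not pass, and Wnt5a rose (1.93), with its probes between 0.84 and 1.93. The WNT target Axin2 fell by 1.48; in its list of beta catenin genes 5 of 15 fell and none was called higher, with Ctnnb1 itself at 0.26. Among 20 WNT receptors and antagonists 6 were higher and 4 lower (median 0.28). EGF family ligands, receptors and feedback genes fell in 8 of 9 cases, among them Btc (−1.34) and the receptor inhibitor Errfi1 (−2.84); with day 0 counted as 1 sample 4 fell. In the FGF list 2 of 14 rose (14.3%) and 4 fell (28.6%), against 20.6% and 22.8% of all genes. The feedback genes Dusp6 (−1.65), Spry4 (−1.49) and Dusp4 (−1.06) fell, and the decoy receptor Fgfrl1 rose (0.97).

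Growth factors of vessels and of the insulin family included large rises. Angpt2, an angiopoietin that loosens vessel walls, measured 9.10, 9.24, 9.22, 8.83 and 8.95 at day 0 and 13.07, 12.68 and 13.01 at day 8, a 14.4-fold rise (SE 0.16 on the log2 scale, adjusted p = 1.48e-12). Pdgfb (−1.64) and the VEGF receptor Flt1 (−2.0) fell; in this list of 19 genes 3 rose and 8 fell. Igf2, an insulin-like growth factor, measured 8.12, 8.05, 7.73, 7.82 and 7.81 at day 0 and 11.64, 11.54 and 11.94 at day 8, a 13.9-fold rise (adjusted p = 2.42e-09). Of 19 genes of the insulin and IGF system 7 rose and 2 fell, with Foxo1 (1.21), which insulin signals hold out of the nucleus, up, the binding protein Igfbp4 (−0.75) down and Igfbp7 (−0.04) not called. The Notch list had 4 rises and 4 falls among 18 genes, each a share of 22.2% and near those of all genes, with the target Hey2 (1.99) up and the ligand Jag1 (−1.32) down. Hedgehog genes, through which granulosa cells signal to theca, were 7 in number and showed little movement, with Ptch1 at 0.03, Smo at 0.15 and Dhh at 0.10. Ihh was the one called (0.38, adjusted p = 0.0272), and it lost its call without day 0 replicate 3 (adjusted p = 0.0537), without day 8 replicate 2 (adjusted p = 0.216) and with day 0 counted as 1 sample.

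Transcription factor families were mixed. Nuclear receptors rose in 8 of 28 cases (28.6%) and fell in 6 (21.4%), against 20.6% and 22.8% of all genes. Nr5a1, the steroidogenic factor SF-1, rose by 1.33 (adjusted p = 2.74e-06), and Esr2, the granulosa oestrogen receptor, did not pass (−0.15). Esrrb, an orphan receptor of pluripotent and germ cells, measured 8.60, 8.64, 8.64, 8.62 and 8.94 at day 0 and 5.89, 5.59 and 5.80 at day 8, a change of −2.93 (adjusted p = 5.33e-10). SOX, FOX, GATA and KLF factors fell in 18 of 41 cases and rose in 6. Klf5 was at least 9.74-fold lower and not above background at day 8, and Sox18, a factor of endothelial cells, measured 10.64, 10.56, 10.49, 10.91 and 10.64 at day 0 and 7.69, 8.09 and 8.25 at day 8. Homeobox genes were balanced, 9 of 34 higher (26.5%) and 7 lower (20.6%), shares near those of all genes. Hoxc6 (1.51) was up and Hoxa7 (−1.65) and the oocyte factor Lhx8 (−1.53) were down. Of 192 zinc finger protein genes 41 rose (21.4%) and 29 fell (15.1%), shares near those of all genes for rises and below them for falls.

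Collagens were called about as often as other genes. Of 26 collagens 5 rose and 7 fell (median −0.21), 19.2% higher and 26.9% lower, near the 20.6% and 22.8% of all genes. Col9a2, a collagen known from cartilage, measured 9.05, 9.06, 9.25, 9.03 and 9.19 at day 0 and 5.34, 5.71 and 5.64 at day 8, a 11.7-fold fall (adjusted p = 1.14e-10), and Col12a1 fell by 1.5. Col15a1 rose by 1.02, and the basement membrane chains Col4a1 (−0.27) and Col4a2 (−0.17) did not pass. Laminins, nidogens and other basement membrane genes fell in 6 of 19 cases with none called higher, with Lama1 (−1.11) and Tinagl1 (−2.51) down and Sparc (0.06) not called. Among matricellular and elastic fibre proteins 9 of 21 rose and 7 fell. Tnc, which encodes tenascin C, measured 8.85, 8.64, 8.85, 8.91 and 8.56 at day 0 and 6.27, 6.01 and 6.21 at day 8, a change of −2.60 (adjusted p = 3.48e-09), and Eln, the elastic fibre protein elastin, fell by 1.91. Of the small proteoglycans, Dcn rose (0.90), Prelp fell (−1.81) and Bgn (0.23) did not pass; Has1, a hyaluronan synthase, was at least 2.36-fold lower.

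The list of matrix proteases and their inhibitors had 13 rises and 8 falls among 35 members. Timp2, an inhibitor of matrix proteases, measured 10.09, 10.16, 9.93, 9.75 and 10.00 at day 0 and 12.24, 12.08 and 12.15 at day 8, a 4.51-fold rise (SE 0.13 on the log2 scale, adjusted p = 9.74e-11). Adam12 was at least 2.89-fold higher, Mmp12 at least 8.85-fold higher and Mmp13 at least 3.83-fold lower, and Mmp2 (0.01) did not pass. Serpins and plasminogen activators were split evenly, 8 up and 8 down among 21. Serpina5 (4.26) and Serpina3n (4.12), both inhibitors of serine proteases, were among the 12 largest rises of the comparison; the Serpina3 genes are near-identical and can share signal. Serpinf1, which encodes an antiangiogenic factor, fell by 1.61, and the urokinase gene Plau by 1.86.

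Of 24 connexins, claudins and tight junction genes 4 rose and 10 fell. Cldn11, a claudin, measured 8.36, 8.23, 8.44, 8.07 and 8.51 at day 0 and 10.67, 10.12 and 10.39 at day 8, a change of 2.07 (adjusted p = 2.50e-07), whereas Cldn4 (−2.57) fell. Gja4, the connexin 37 of junctions with the oocyte, fell by 1.56. Cadherins and immunoglobulin adhesion molecules rose in 7 of 34 cases and fell in 6, shares of 20.6% and 17.6% that are at or below those of all genes, with Cdh1 (−1.64) and Icam1 (−2.31) down. Among 14 integrins Itga6, a laminin receptor chain, fell by 1.67 and Itgb5 rose by 0.82. Keratins and other intermediate filaments fell in 13 of 25 cases and rose in 1. Krt18, an epithelial keratin, measured 8.30, 8.09, 7.99, 8.10 and 8.23 at day 0 and 4.85, 4.81 and 5.34 at day 8, a 8.81-fold fall (adjusted p = 1.38e-09), its partner Krt8 fell by 1.82, and vimentin, Vim, stood at −0.05. Tubulins and kinesins fell in 15 of 36 cases, among them Tubb6 (−1.70).

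Immune genes had more falls than rises. Chemokines and their receptors fell in 11 of 21 cases and rose in 4 (median −0.73, or −0.35 with the members below background set to their bound), and 9 members were not above background at day 8. Ccl7 was detected on 1 of the 3 day 8 arrays and fell by 3.35, Ccl2 was at least 5.78-fold lower, and Cxcl13, which draws B cells, was at least 5.15-fold higher. Interleukins and their receptors fell in 17 of 41 cases and rose in 5, with Il11 (−1.59) down and Il18 at least 1.9-fold higher. Of 22 interferon response genes 14 fell and none was called higher (median −1.12, or −0.99 with the members below background set to their bound), and the same number fell with day 0 counted as 1 sample; Gbp2 fell by 3.10. Of 27 complement and acute-phase genes 12 were higher and 4 lower. Masp1, a protease of the lectin pathway, rose by 2.60, and C6, a component of the membrane attack complex, was at least 3.71-fold higher. Among TNF family genes Tnfrsf12a, the receptor of TWEAK, fell by 3.42.

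Of 22 targets of p53 9 rose and 8 fell. Ccng1 (2.03), Trp53inp1 (1.88) and Zmat3 (1.41) rose, Gadd45a (−2.05), Gadd45b (−2.22) and Plk2 (−1.51) fell, and Mdm2 (−0.12), the main feedback target, did not pass. Of 32 BCL2 family members and caspases 7 rose and 7 fell, 21.9% higher and 21.9% lower, near the 20.6% and 22.8% of all genes, with the inhibitor Birc2 (1.15) and the initiator Casp9 (0.86) up and Bcl2 (−1.17) and Casp4 (−1.83) down. Of 21 immediate early genes 8 fell and 2 rose. Jun rose by 1.17, Atf3 fell by 1.81, and Fos (0.16) and Egr1 (0.19) did not pass.

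Of 79 carriers of zinc, phosphate, nucleosides and other metabolites 23 rose (29.1%) and 21 fell (26.6%), against 20.6% and 22.8% of all genes. Slc2a6, a glucose transporter relative of lysosomal membranes, was at least 4.93-fold higher, Slc41a3, of a magnesium carrier family, rose by 2.08, and Slc45a3 fell by 2.01. Ion channels rose in 14 of 66 cases and fell in 13, shares of 21.2% and 19.7%, close to those of all genes, with the potassium channel subunit Kcne2 (1.83) up. ABC transporters rose in 8 of 26 cases (30.8%) and fell in 5 (19.2%), against 20.6% and 22.8% of all genes. Abcc3 (1.45), an exporter of conjugates, rose and the phospholipid exporter Abcb4 (−1.82) fell.

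Markers of cells that can cling to an isolated follicle were mostly lower at day 8. Endothelial markers fell in 8 of 12 cases and rose in 1, with Eng (−1.77) and Emcn (−1.48) down and Cdh5 (0.11) not called; their summed level was 4404 to 4807 at day 0 and 2420 to 2837 at day 8. All 5 surface epithelium markers tested fell, and Upk3b fell by 1.95, with a summed level of 2498 to 2784 against 683 to 781. Smooth muscle and pericyte markers fell in 4 of 7 cases (summed level 6730 to 7499 against 3045 to 3961). Myh11, smooth muscle myosin, fell by 2.16, and Des and Rgs5 were not above background at day 8. All 4 red blood cell markers fell, from 2471 to 3433 to 125 to 146 in summed level, and Alas2 was not above background at day 8. Fibroblast and stroma markers were split, 2 of 8 higher and 3 lower (summed level 9286 to 9888 against 10951 to 14510), with Mfap5 not above background at day 8. Of 11 markers of T, B and NK cells 2 passed the filter, Lck (0.31) and Ms4a1 (0.25), and neither was called. The part of these cells in the changes of Flt1, Sox18, Krt18, Tnc, the chemokines and the interferon response was not tested.

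Levels at the days between show that the changes were reached along different courses. Day 8 was also set against day 2, the first cultured day, where 2395 genes (22.4%) were called; both comparisons use the same day 8 arrays. Igf2 stood at 7.91 at day 0, 8.21 at day 2 and 11.71 at day 8, and its change after day 2 was 3.50 (adjusted p = 1.59e-07). Angpt2 (2.62 from day 2 to day 8), Fads2 (2.37) and Naglu (1.69) were also called between day 2 and day 8. Mgst2 was at 8.58 by day 2, a rise of 3.02, and its change after day 2 did not pass (0.45, adjusted p = 0.589). Gpx3 and Cldn11 dipped first: Gpx3 went from 8.06 to 6.96 at day 2 and 10.07 at day 8, and Cldn11 from 8.32 to 6.93 and 10.39. Both were called between day 2 and day 8 (adjusted p = 4.80e-08 and 7.13e-09). Among falls, Cdt1 was at 10.80 at day 0 and 10.88 at day 2, and fell by 1.45 after day 2 (adjusted p = 9.04e-05). Rrp12 fell by 0.57 up to day 2 and by 1.41 after it, both past the threshold. Wnt4 fell by 2.42 up to day 2 and reached its lowest mean, 6.85, at day 5. Krt18 fell by 2.38 up to day 2 and fell by 3.14 in all. Npm2 was lowest at day 6 (7.76) and Tnc too (5.88), and for both the day 8 mean lay within 1 log2 unit of that.

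**Figure D5:**
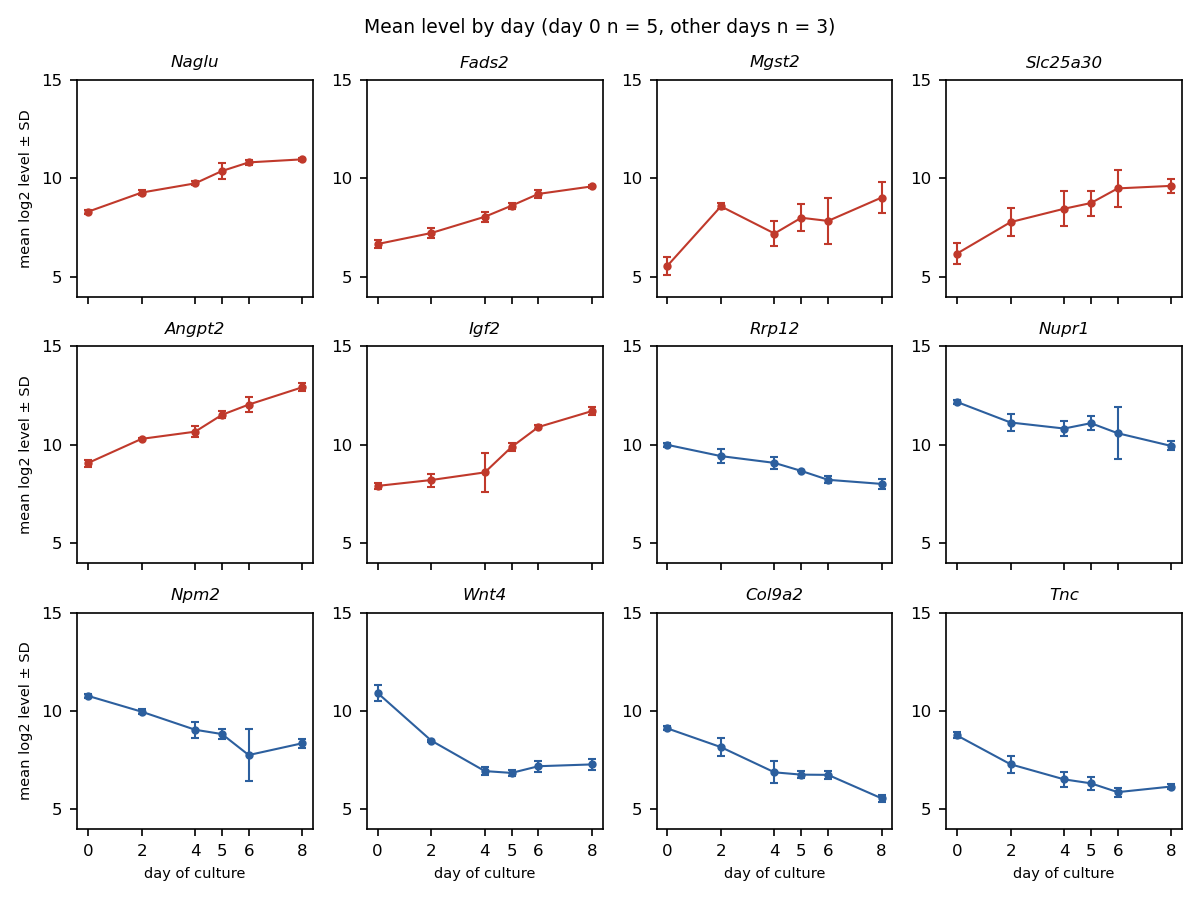
Mean log2 level with standard deviation on each day of culture (day 0 n = 5, days 2, 4, 5, 6 and 8 n = 3) for 12 genes, red where day 8 was called higher than day 0 and blue where it was called lower. Igf2 and Fads2 climb through the culture, Mgst2 stands near its day 8 level at day 2 and below it at day 4, and Wnt4 is near its day 8 level from day 4 on.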

How the data were processed

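Total RNA of pooled follicles was amplified, labelled with biotin and hybridized to Illumina mouse bead arrays, per the labels. The deposited table held, per the file headers, a bead signal as an intensity without normalization, its standard error as an intensity, a detection p-value and a number of beads (another unit, a bead count) for 25697 probes on each array. The authors' second deposited table held log2 values whose normalization is not given in the sources used here. Analysis in limma 3.58.1 (R 4.3.3) began with neqc on the 20 follicle arrays (background from the detection p, offset 16, quantile normalization, log2). The filter asked for detection (p under 0.05) by 3 or more of the 20 arrays and left 14490 probes. The brightest of them on average represented each of 10693 genes, of which 21 had no usable symbol. Array symbols were updated through the RefSeq table of GRCm38.p6: of 18138 symbols 14307 were current, 2902 were updated, 26 had been damaged by a spreadsheet and 903 were kept. Probes of near-identical genes (globins, lysozymes, histones, keratins, tubulins, Serpina3, Gsta, Nlrp9) may measure more than 1 gene.

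One mean per day was fitted with lmFit and eBayes, with Benjamini-Hochberg adjustment over all genes and a threshold of 0.05. The pipeline was tested on simulated data. A gene with no detected array on a day was not above background there, and its fold, written "at least", is a lower bound taken against the lowest level that counted as detected per array. List medians were also computed with such members at that bound. Members and lists were chosen with earlier results of these data known. Named were genes among the 12 largest changes in each direction, up to 4 called members per direction of each list, all without overlap between the days, 2 uncalled members of each list, and all members of lists with 8 or fewer. Of these 768 genes a choice was printed, mostly called genes whose call held under every alternative (404 of 566 called). Markers named as not above background or as detected stand outside this rule. Motifs were searched on both strands of RefSeq promoter windows (GRCm38.p6), found for 8176 of the genes tested. The number of arrays limits the precision. Slides and chips are not given in the sources used here, so no batch could be fitted. Alternatives covered the authors' values, background, offset, filter, probe choice, arrays in the fit, array weights and a replicate block. Day 0 was also counted as 1 sample, and each day 0 and day 8 replicate was left out in turn. Some genes are not reported here.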

Additional observations from a re-analysis of the deposited data

Results flagged for a closer look

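For each of 266 genes named in the text it was asked whether 1 of the 5 day 0 arrays stood far from the other 4, by Dixon's criterion with a critical value of 0.71 for the gap over the range. This was so for 22 genes (8.27%), and chance flags about 1 in 20. The array apart was replicate 4 for 16 of them, replicate 5 for 4, and replicates 2 and 3 for 1 each. For Slc25a45 replicate 5 read 6.79 against 5.90 to 6.10 on the others. Replicate 4 was high for Atp6v0e2 (7.97), Ccng1 (9.33), Cln3 (9.95), Col4a1 (12.62), Fgfrl1 (8.33), Lhx8 (8.22), Padi6 (13.61), Slc25a15 (9.30), Slc45a3 (11.35) and Zp3 (12.44). It was low for Bcl2 (7.41), Casp9 (9.46), Jag1 (7.08, with the others between 7.83 and 8.06), Mcm10 (9.94), Ndufa13 (12.98) and Plk2 (9.33). Replicate 5 was also high for Chek1 (8.11), Esrrb (8.94) and Myh11 (7.62), replicate 2 was high for Prelp (8.92), and replicate 3 was low for Upk3b (6.88). The 19 of these genes that were called kept their call without the array in question. Most called genes named had been chosen because their call held under every alternative.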

How the results depend on the processing

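With the day 0 arrays averaged and counted as 1 sample, 2114 genes were called between day 0 and day 8, 928 higher and 1186 lower, all of them among the 4639. Leaving out 1 array at a time gave 4061 to 4503 calls (1915 to 2123 higher, 2146 to 2380 lower). For day 8 against day 2 array weights gave 3886 calls in place of 2395. Leaving out 1 day 0 or day 8 array gave 1962 to 2382, and no day 2 array was left out. The other settings moved no count of called genes by more than 1.5 times, and in none was a gene called between day 0 and day 8 called in the opposite direction. The authors' values kept 4039 of 4234 calls tested there, but 136 of 206 named changes were more than 1.5 times smaller, as were 82 of 218 without background correction. In the authors' values the median was 0.63 for lysosomal genes, 0.70 for fatty acid synthesis, −0.53 for nucleolar genes and −0.61 for the amino acid response. Of 105 lists, 75 lost calls by more than 1.5 times with day 0 counted as 1 sample, and 6 had a median above 0.1 in size that changed sign in some setting. A replicate block gave 4111 calls, 3949 of them shared with the fit without it. Deviations of same-numbered arrays correlated at 0.405, −0.274 and −0.0655. Those of different-numbered arrays lay between −0.547 and 0.399, so these values cannot settle whether the numbers mark a pairing. Chosen after seeing the data were fits with only day 0 replicates 1 to 3 (4143 calls) and only replicates 4 and 5 (3455). Of 218 called genes named, Cox7a1 lost its call with day 0 counted as 1 sample, and Ihh and Adgre1 there and in other settings. Of 48 uncalled ones, 13 gained one. The few losses follow from the choice of genes, mostly those whose call held. Of the 566 called genes that the naming rule allows, 404 were called in every setting. Of the rest, 70 lost their call only with day 0 counted as 1 sample and 92 in another setting. Signal over background limits what low genes show: 103 genes were detected on neither day.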
